A study of Mus musculus with 6 samples.

Results

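The genes described here are those of the mouse major histocompatibility complex (MHC) and of antigen presentation. They were chosen by name: every gene whose symbol starts with H2-, plus Cd74, Ciita, Nlrc5, Tap1, Tap2, Tapbp and Cd1d1. The rule found 51 of the 34745 genes in the files, and 44 of them carry the H2- prefix. By role, 30 are class I genes, 11 are class II genes (5 chains and 6 genes of peptide loading) and 10 have other roles. At least 1 count was found for 39 of the 51, and 32 passed the filter on low counts and were tested.

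Inguinal white adipose tissue (IngWAT), the subcutaneous fat pad of the groin, was profiled by RNA-seq of poly(A)-selected RNA in 3 SAKI mice and 3 WT mice, 1 library per mouse. SAKI mice carry an LSL-Slc35d3 transgene that adiponectin-Cre switches on, so that Slc35d3, a putative nucleotide sugar transporter, is over-produced in adipocytes, and WT mice are controls that carry no adiponectin-Cre. Both groups were males on a C57BL/6 background that ate a normal chow diet (NCD) with 10 kcal% fat for 10 weeks from the age of 6 weeks, and the labels record PBS perfusion for all of them. A control with the Cre alone was not part of the comparison. Adiponectin-Cre acts in adipocytes, whereas most class II genes are known from immune cells.

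Slc35d3, the transgene's gene, averaged 770 ± 24 CPM in SAKI mice and 76.6 ± 4.79 CPM in WT mice (SD, n = 3 each), and its log2 fold change was 3.33 (SE 0.12, edgeR adjusted p = 0.000244). CPM here are read counts scaled to the library's total by TMM factors, so they compare a gene between libraries and not genes with each other. The libraries held 15354161 to 18787036 counts. The first principal component of all genes (47.9% of the variance) placed the SAKI libraries at -27.8, -25.5 and -21.0 and the WT libraries at 40.6, -24.4 and 58.1, so WT 2 lay among the SAKI libraries. Fold changes that move by over 1.5 times when WT 2 is left out are therefore also given without it. The markers of mature adipocytes were abundant in every library, and their sum ranged over 19370 to 21566 CPM in SAKI libraries, against 21917 to 29115 CPM in WT libraries. No member passed the edgeR test after adjustment over all 15400 genes tested. Of all genes tested, 0.0195% were called higher in SAKI mice (3 genes) and 0.0130% lower (2 genes) at an adjusted p under 0.05. When counts were drawn at this depth and spread with known folds, edgeR found 0 of 67 genes altered 1.5-fold and 18 of 67 altered 2-fold. The altered genes were drawn at random from all genes tested, so these rates are not those of the members. None of the 32 members tested differed by as much as 2-fold between the group means.

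MHC class I molecules are carried by nearly all cells with a nucleus. They display peptides from the cytosol to CD8+ T cells, and their heavy chains need the transporter of Tap1 and Tap2 and the bridging protein tapasin (Tapbp) to be loaded. MHC class II molecules are made mainly by dendritic cells, macrophages and B cells and display peptides from the endosome to CD4+ T cells. Their alpha and beta chains are escorted by the invariant chain (Cd74), which the H2-DM molecule later exchanges for peptide, and H2-O holds H2-DM back. The coactivator Ciita is the master switch of class II genes, and its relative Nlrc5 acts on class I genes. Fat tissue holds resident macrophages and lymphocytes, and the inguinal pad also surrounds a lymph node.

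Ciita does not bind DNA itself but joins a complex that sits on the X and Y boxes of class II promoters. Letters that match these boxes are shown because most of the class II promoters searched hold the pair. Promoters (250 bases before to 50 after the start) were taken from RefSeq, GRCm38.p6, for 33 of the 51 members: 22 class I, 8 class II and 3 other genes. The core of the X box was searched as GNAAC followed, 24 to 27 bases on, by the Y box core GATTGG, on both strands. The spacing was set after the members' promoters had been read, so the counts below are a description. The pair was found in 6 of the 9 class II promoters (6 of the 8 genes). It was in 0 of 24 class I promoters and in 0.234% of all 32851 promoters (77 of them). Capitals mark the X box core and then the Y box core.
H2-Aa (chr17:34287859-34287912, minus strand): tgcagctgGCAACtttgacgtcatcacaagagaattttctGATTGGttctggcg
H2-Eb1 (chr17:34305768-34305820, plus strand): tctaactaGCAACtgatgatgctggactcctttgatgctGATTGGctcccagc
H2-Eb2 (chr17:34325535-34325587, plus strand): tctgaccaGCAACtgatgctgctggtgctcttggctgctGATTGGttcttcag
H2-DMb1 (chr17:34153089-34153142, plus strand): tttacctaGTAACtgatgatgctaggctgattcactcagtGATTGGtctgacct
H2-Oa (chr17:34092295-34092348, plus strand): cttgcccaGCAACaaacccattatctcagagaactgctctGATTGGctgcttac
H2-Ob (chr17:34238810-34238860, plus strand): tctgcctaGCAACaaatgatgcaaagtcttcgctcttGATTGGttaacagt
The X box core of H2-Aa lay 81 bases before the annotated start, and that of H2-Eb2, the farthest of the 6, lay 132 bases before it. H2-DMa and H2-DMb2 had the Y box core but not the pair at this spacing, which says only that these letters are not in the window. The Y box core alone was found in 16.1% of all promoters and in 75% of the class I promoters, counting both strands. On the gene strand it was in 1 of the 24 class I promoters and 8 of the 9 class II promoters. Boxes in another orientation or spacing were not searched as a pair, so 0 of 24 does not show that class I promoters lack them.

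Other cores were searched in the same promoters. The kappaB core GGGATTCCC, a site of the NF-kappaB family, was present in 20.8% of the 24 class I promoters, in none of the class II promoters and in 0.353% of all promoters. The interferon-stimulated core GTTTCNNTT, read by interferon regulatory factors, was present in 50% of the class I promoters, 22.2% of the class II promoters and 5.77% of all promoters. In 4 class I genes the pair stood together, 9 or 10 bases apart. Capitals mark the kappaB core and then the interferon-stimulated core.
H2-D1 (chr17:35262916-35262959, plus strand): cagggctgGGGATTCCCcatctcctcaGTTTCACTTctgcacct
H2-K1 (chr17:34000422-34000465, minus strand): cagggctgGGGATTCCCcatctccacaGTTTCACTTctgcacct
H2-Q6 (chr17:35424670-35424713, plus strand): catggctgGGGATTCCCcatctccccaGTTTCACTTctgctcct
H2-Q7 (chr17:35439015-35439057, plus strand): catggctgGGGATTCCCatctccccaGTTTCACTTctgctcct
The stretches of H2-D1 and H2-K1, the classical class I genes, differed at 1 of their 44 bases.

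Class II transcripts were higher in IngWAT of SAKI mice than of WT mice, by 1.17- to 1.58-fold, in values that edgeR did not call after adjustment. Their 10 tested members had log2 fold changes between 0.23 and 0.66, all above 0, with a median of 0.40, beside a median of -0.004 over all 15400 genes. In 9 of the 10, every SAKI library lay above every WT library, against 13.0% of all genes tested that did so in this direction. The same 9 had an unadjusted edgeR p under 0.05, against 8.36% of all genes. Groups that are apart stay apart when a library is left out, so by that measure only the remaining gene, H2-DMb2, could change. It did not join the 9 without WT 2, where 26.3% of all genes were apart in this direction. The unadjusted p could change, and the same 9 genes passed without WT 2, against 17.0% of all genes. In whole tissue, more cells of a type cannot be told apart from more RNA per cell.

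The chains of the I-A molecule, the class II molecule of this strain, were abundant. H2-Aa, its alpha chain, had 685, 685 and 658 CPM in SAKI mice, against 464, 517 and 422 CPM in WT mice. The SAKI libraries lay close together and all above the WT libraries. Its log2 fold change was 0.53 (SE 0.12, edgeR adjusted p = 0.164). H2-Ab1, the beta chain that pairs with it, had 485, 454 and 535 CPM in SAKI mice, against 420, 339 and 389 CPM in WT mice. The groups did not overlap, SAKI 2 and WT 1 being the nearest libraries, and the log2 fold change was 0.36 (SE 0.13, edgeR adjusted p = 0.235).

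The I-E molecule needs an alpha chain that mice of the H-2b type, such as C57BL/6, do not make. H2-Ea-ps, the remnant of that gene, had 0 counts in all 6 libraries, which allows at most 0.195 CPM in any of them by counting error. The beta chain gene H2-Eb1 was nonetheless transcribed, at 481, 499 and 540 CPM in SAKI mice, against 438, 381 and 406 CPM in WT mice. Every SAKI library lay above every WT library, and the log2 fold change was 0.31 (SE 0.11, edgeR adjusted p = 0.238). H2-Eb2, a second I-E beta gene, was scarce, at 18.3, 23.7 and 20.9 CPM in SAKI mice and 17.0, 11.2 and 13.1 CPM in WT mice. The groups were separated by little (18.3 CPM in SAKI 1 against 17.0 CPM in WT 1), with a log2 fold change of 0.61 (SE 0.19, edgeR adjusted p = 0.206).

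Cd74, the invariant chain that blocks the peptide groove until the endosome is reached, had the highest CPM of the class II genes. It had 1200, 1254 and 1322 CPM in SAKI mice, against 1041, 956 and 922 CPM in WT mice. All SAKI libraries were above all WT libraries, and the log2 fold change was 0.37 (SE 0.12, edgeR adjusted p = 0.210).

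H2-DM is the exchanger that takes the Cd74 fragment out of the groove. Its alpha chain gene H2-DMa had 53.1, 53.7 and 52.6 CPM in SAKI mice, against 46.0, 39.6 and 36.8 CPM in WT mice. SAKI libraries hardly differed among themselves and lay above each WT library, with a log2 fold change of 0.38 (SE 0.11, edgeR adjusted p = 0.192). The beta chain gene H2-DMb1 had 47.0, 52.8 and 48.9 CPM in SAKI mice, against 34.3, 42.3 and 34.8 CPM in WT mice. The groups did not overlap, and the log2 fold change was 0.42 (SE 0.12, edgeR adjusted p = 0.188). H2-DMb2, the second beta chain gene, was the 1 class II gene whose groups overlapped. It ranged over 59.3 to 76.7 CPM in SAKI libraries, against 43.8 to 71.9 CPM in WT libraries, and its log2 fold change was 0.23 (SE 0.20, edgeR adjusted p = 0.545). The value was 0.06 without WT 2, 0.40 without WT 1 and 0.14 without SAKI 2. Stretches of 100 bases found in both genes made up 13.7% of the H2-DMb1 transcript and 12.9% of the H2-DMb2 transcript, so reads may have been split between them. Of the H2-DMa exons, 10.4% overlapped those of Brd2 on the opposite strand, and the strand setting of the counts is not given in the sources used here.

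H2-O, the inhibitor of H2-DM, is known from B cells, thymic epithelium and some dendritic cells. Its alpha chain gene H2-Oa had 22.8, 23.0 and 24.9 CPM in SAKI mice, against 17.2, 14.0 and 13.4 CPM in WT mice. The lowest SAKI library was well above the highest WT library, and the log2 fold change of 0.66 (SE 0.14, edgeR adjusted p = 0.155) was the highest of the class II genes. Of its exonic bases, 22.8% overlap BC051537 on the opposite strand. The beta chain gene H2-Ob had 99.3, 130 and 105 CPM in SAKI mice, against 86.7, 67.3 and 85.8 CPM in WT mice. The groups did not overlap, with SAKI 2 the highest and WT 2 the lowest library, and the log2 fold change was 0.48 (SE 0.15, edgeR adjusted p = 0.208).

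**Figure D1:**
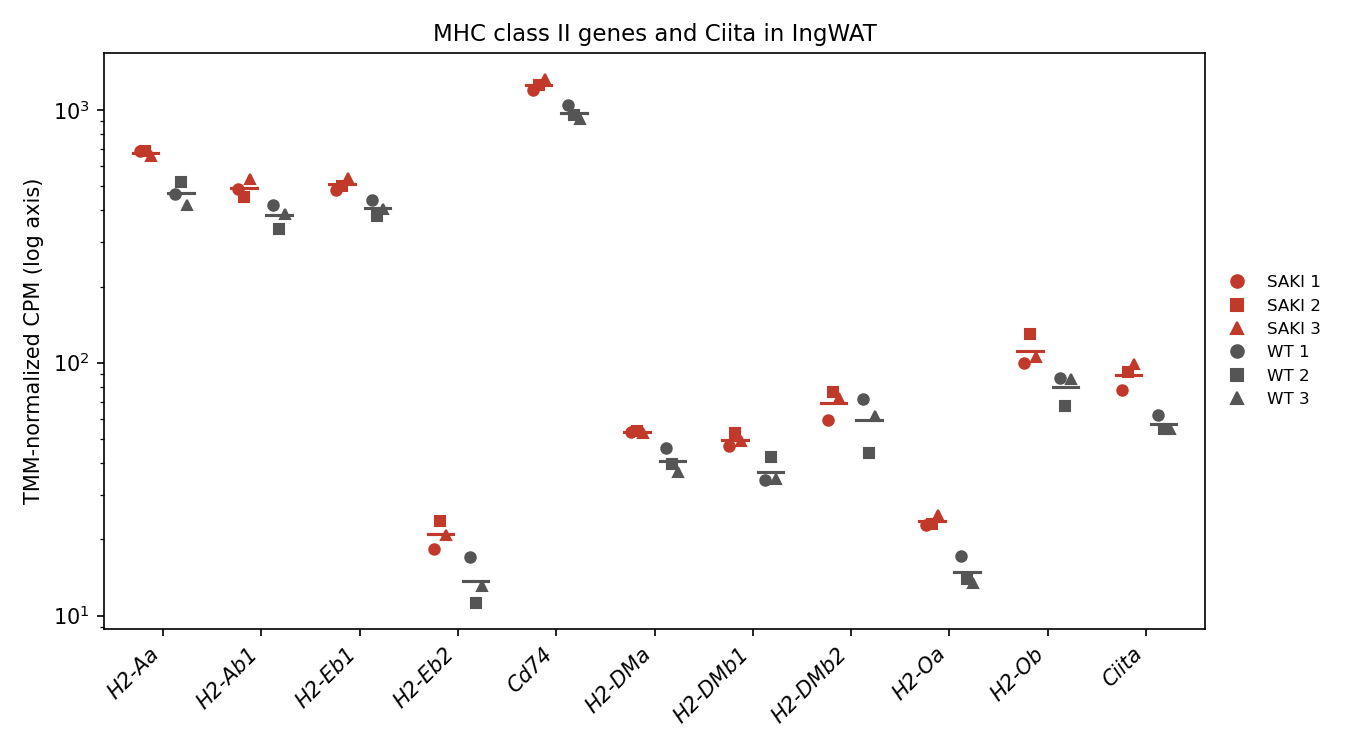
Normalized level (TMM-scaled CPM, log axis) of the 10 class II genes tested and of Ciita in each IngWAT library, SAKI mice in red left of WT mice in grey, with symbols for the mouse number and a bar at the group mean. In 9 of the 10 class II genes and in Ciita all 3 SAKI libraries sit above all 3 WT libraries, while the groups of H2-DMb2 overlap.

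Ciita, the coactivator that class II transcription depends on, was higher in SAKI mice as well. It had 78.2, 91.5 and 98.9 CPM in SAKI mice, against 62.0, 54.9 and 54.7 CPM in WT mice. The groups were clearly apart, at 89.5 ± 10.5 CPM in SAKI mice and 57.2 ± 4.17 CPM in WT mice (SD, n = 3 each). Its log2 fold change of 0.65 (SE 0.12) had the lowest edgeR adjusted p of any member, 0.148. Exact permutation of the 6 libraries gave p = 0.1 (two-sided), the lowest value that 3 against 3 allows, for Ciita as for every member whose groups did not overlap. Per kilobase of merged exons in GENCODE, Ciita stood at 9.39 CPM in SAKI mice and 6.00 CPM in WT mice. That was far below H2-Aa at 178 CPM per kilobase in SAKI mice and 123 in WT mice, but above the scarce H2-Eb2 at 6.18 and 4.06.

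Whether members were called depended on the tool and on WT 2. DESeq2, which called 2.13% of its genes higher in SAKI mice and 2.86% lower, called 5 members higher and 0 lower. The 5 were Ciita (adjusted p = 0.00332 by DESeq2), H2-Aa (0.00462), H2-Oa (0.0108), H2-T24 (0.0265) and Cd74 (0.0336). Without WT 2, edgeR called 7.41% of all genes higher in SAKI mice and 9.14% lower. It then called 4 members higher, namely H2-Aa (adjusted p = 0.0151), H2-DMb1 (0.0211), Ciita (0.0288) and H2-Oa (0.0357), and 3 lower, namely Tap2 (0.0201), H2-Q6 (0.0328) and H2-Q4 (0.0441). The class II median was 0.37 without WT 2, so the size of the difference hardly moved.

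Class I genes gave no common direction. Of the 14 tested, 6 had a log2 fold change above 0 and 8 below, between -0.58 and 0.68, with a median of -0.05. H2-T24 alone of the 14 had an unadjusted edgeR p under 0.05, near the 8.36% of all genes that were higher by that measure. In H2-T24 and H2-M3 every SAKI library lay above every WT library, near the 13.0% of all genes, and in no class I gene did every SAKI library lie below, where 12.4% of all genes did. The classical genes, which present to CD8+ T cells, were the most abundant by CPM of all 51 members beside Cd74. H2-D1 had 1743, 1772 and 2022 CPM in SAKI mice, against 2082, 1873 and 2207 CPM in WT mice. The groups overlapped, since SAKI 3 was above WT 2, and the log2 fold change was -0.15 (SE 0.14, edgeR adjusted p = 0.574). H2-K1 had 1015, 1087 and 1222 CPM in SAKI mice, against 1350, 1018 and 1488 CPM in WT mice. WT 2 lay within the SAKI range, and the log2 fold change was -0.21 (SE 0.18, edgeR adjusted p = 0.531), or -0.35 without WT 2 and -0.10 without WT 3.

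The nonclassical class I genes, which include ligands of NK cell receptors and presenters of special peptides, numbered 28, of which 12 were tested. H2-T24, a little-studied gene of the T region, stood apart from the others, with 31.8, 30.5 and 35.0 CPM in SAKI mice, against 24.9, 19.3 and 16.5 CPM in WT mice. The groups did not overlap, and its log2 fold change was 0.68 (SE 0.17, edgeR adjusted p = 0.170). H2-M3, which presents formylated peptides of bacteria and mitochondria, had 26.6, 24.2 and 27.2 CPM in SAKI mice, against 24, 21.4 and 21.8 CPM in WT mice. The gap between the groups was only that between 24.2 CPM in SAKI 2 and 24 CPM in WT 1, and the log2 fold change was 0.21 (SE 0.11, edgeR adjusted p = 0.350).

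Within the Q region the WT mice disagreed with each other more than the groups did. H2-Q4, H2-Q5, H2-Q6 and H2-Q7, picked out after their values were seen, summed to 593, 610 and 728 CPM in SAKI mice, against 816, 429 and 816 CPM in WT mice. WT 2 was below every SAKI library and WT 1 and WT 3 were above every one. H2-Q6 showed it most plainly, with 145, 150 and 178 CPM in SAKI mice, against 231, 92.6 and 224 CPM in WT mice. Its log2 fold change was -0.21 (SE 0.33, edgeR adjusted p = 0.752) with all libraries, -0.52 without WT 2, -0.01 without WT 1 and -0.04 without WT 3. H2-Q4 was at -0.18 with all libraries, -0.38 without WT 2, -0.07 without WT 1 and -0.06 without WT 3. H2-Q5 and H2-Q7 had log2 fold changes of -0.01 and 0.11, or -0.29 and -0.12 without WT 2, and both signs depended on which library was left out. Shared 100-base stretches made up 10.8% of the H2-Q6 transcript, 12.9% of that of H2-Q5 and 16.4% of that of H2-Q7, so reads of these genes may have been exchanged.

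The other nonclassical genes that were tested had log2 fold changes from -0.58 for H2-M9 (SE 0.28) to 0.42 for H2-M2 (SE 0.31), and their groups overlapped. H2-M2 was at 0.24 without WT 2 and 0.79 without WT 1, and H2-M9 at -0.36 without SAKI 3. H2-Q10 (-0.15), H2-T23 (0.05) and H2-T10 (0.13) became -0.08, -0.06 and 0.05 without WT 2. H2-T23, the Qa-1 molecule that NKG2A receptors read, had 157, 148 and 169 CPM in SAKI mice and 177, 130 and 153 CPM in WT mice. H2-T22 and H2-T10, ligands of some gamma delta T cells, averaged 171 ± 3.08 and 19.2 ± 1.29 CPM in SAKI mice, against 180 ± 11.7 and 17.6 ± 1.97 CPM in WT mice (SD, n = 3 each). They share sequence with each other and overlap other genes on the opposite strand. GENCODE types H2-T10 as a polymorphic pseudogene, as it does H2-Q5, and protein was not measured. H2-Q10, a secreted molecule of the liver, ranged over 76.4 to 105 CPM in SAKI libraries, against 80.7 to 117 CPM in WT libraries. The 16 class I genes that were not tested had at most 10 counts in any library, and those of the M10 cluster, H2-M1 and H2-Q3 had 0 in every one.

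**Figure D2:**
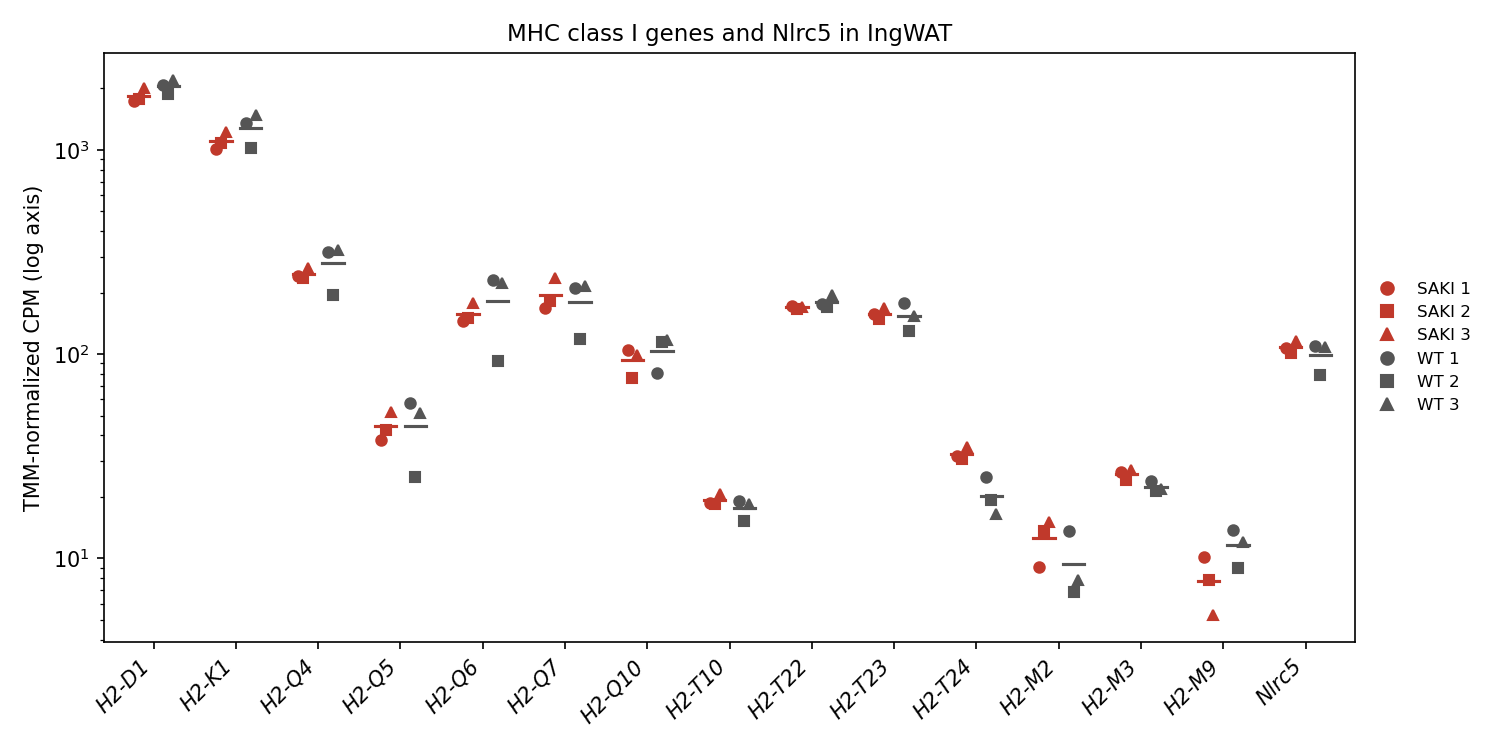
Normalized level (TMM-scaled CPM, log axis) of the 14 class I genes tested and of Nlrc5 in each IngWAT library, SAKI mice in red left of WT mice in grey, with symbols for the mouse number and a bar at the group mean. Groups overlap in 12 of the 14 class I genes, the exceptions being H2-T24 and H2-M3, and WT 2 (grey square) is the lowest library in H2-Q4 to H2-Q7.

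Nlrc5, which acts on class I genes as Ciita does on class II genes, had 107, 101 and 116 CPM in SAKI mice, against 109, 78.9 and 108 CPM in WT mice. WT 1 and WT 3 lay within the SAKI range and only WT 2 below it, with a log2 fold change of 0.13 (SE 0.15, edgeR adjusted p = 0.659). It was -0.00 without WT 2 and 0.20 without WT 1 or WT 3. The genes that load class I molecules were split in direction. Tap1, a subunit of the peptide transporter, had 68.8, 85.1 and 80.7 CPM in SAKI mice, against 80.6, 54.9 and 61.9 CPM in WT mice. Its groups overlapped, with a log2 fold change of 0.25 (SE 0.17, edgeR adjusted p = 0.447). It was 0.14 without WT 2, 0.42 without WT 1 and 0.16 without SAKI 2. Tap2, the other subunit, had 101, 98.9 and 104 CPM in SAKI mice, against 137, 87.7 and 150 CPM in WT mice. WT 2 was again the lowest library and the other WT libraries the highest, and the log2 fold change of -0.30 (SE 0.20, edgeR adjusted p = 0.438) was -0.50 without WT 2 and -0.15 without WT 3.

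Tapbp, or tapasin, which holds the class I molecule at the transporter, had 268, 255 and 264 CPM in SAKI mice, against 323, 270 and 324 CPM in WT mice. Every SAKI library lay below every WT library, though SAKI 1 was close to WT 2, and the log2 fold change was -0.22 (SE 0.12, edgeR adjusted p = 0.348). Opposite-strand exons of Gm19412 cover 24.9% of its exonic bases. Cd1d1, a class I-like molecule that presents lipids to NKT cells, had 127, 143 and 103 CPM in SAKI mice, against 141, 102 and 201 CPM in WT mice. WT 3 was far above the other libraries and WT 2 was the lowest, with a log2 fold change of -0.26 (SE 0.25, edgeR adjusted p = 0.603). Its direction rested on WT 3, since it was 0.02 without that library and -0.46 without WT 2.

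The H2- prefix also covers genes with no known part in presentation. H2-Ke6 lies in the MHC but encodes a mitochondrial enzyme of steroid and fatty acid metabolism. It had 32.7, 30.5 and 32.6 CPM in SAKI mice, against 39.4, 36.2 and 43.5 CPM in WT mice. The groups did not overlap, and its log2 fold change of -0.31 (SE 0.11, edgeR adjusted p = 0.226) made it the 1 member with an unadjusted p under 0.05 and a lower level in SAKI mice, a share that was 9.99% of all genes. The readthrough gene Gm20427 covers 86.4% of its exons on the same strand, so its counts are uncertain. H2-K2, a transcribed pseudogene, had 13.8, 12.8 and 16.6 CPM in SAKI mice, against 10.3, 11.7 and 9.43 CPM in WT mice. It lay higher in every SAKI library, with a log2 fold change of 0.46 (SE 0.16, edgeR adjusted p = 0.228). H2-Pa and H2-Pb had 0 counts in all libraries.

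Across the 32 members tested, 13 lay higher in every SAKI library than in any WT library and 2 lay lower in each, where 13.0% and 12.4% of all genes did so. An unadjusted edgeR p under 0.05 was reached by 12 that were higher and 1 that was lower, against 8.36% and 9.99% of all genes, so the counts on the lower side were below the share of all genes. Class II genes made up 9 of those 13 and 9 of those 12. The remaining members with no overlap were H2-T24, H2-M3, Ciita and H2-K2 on the higher side and H2-Ke6 and Tapbp on the lower side.

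**Figure D3:**
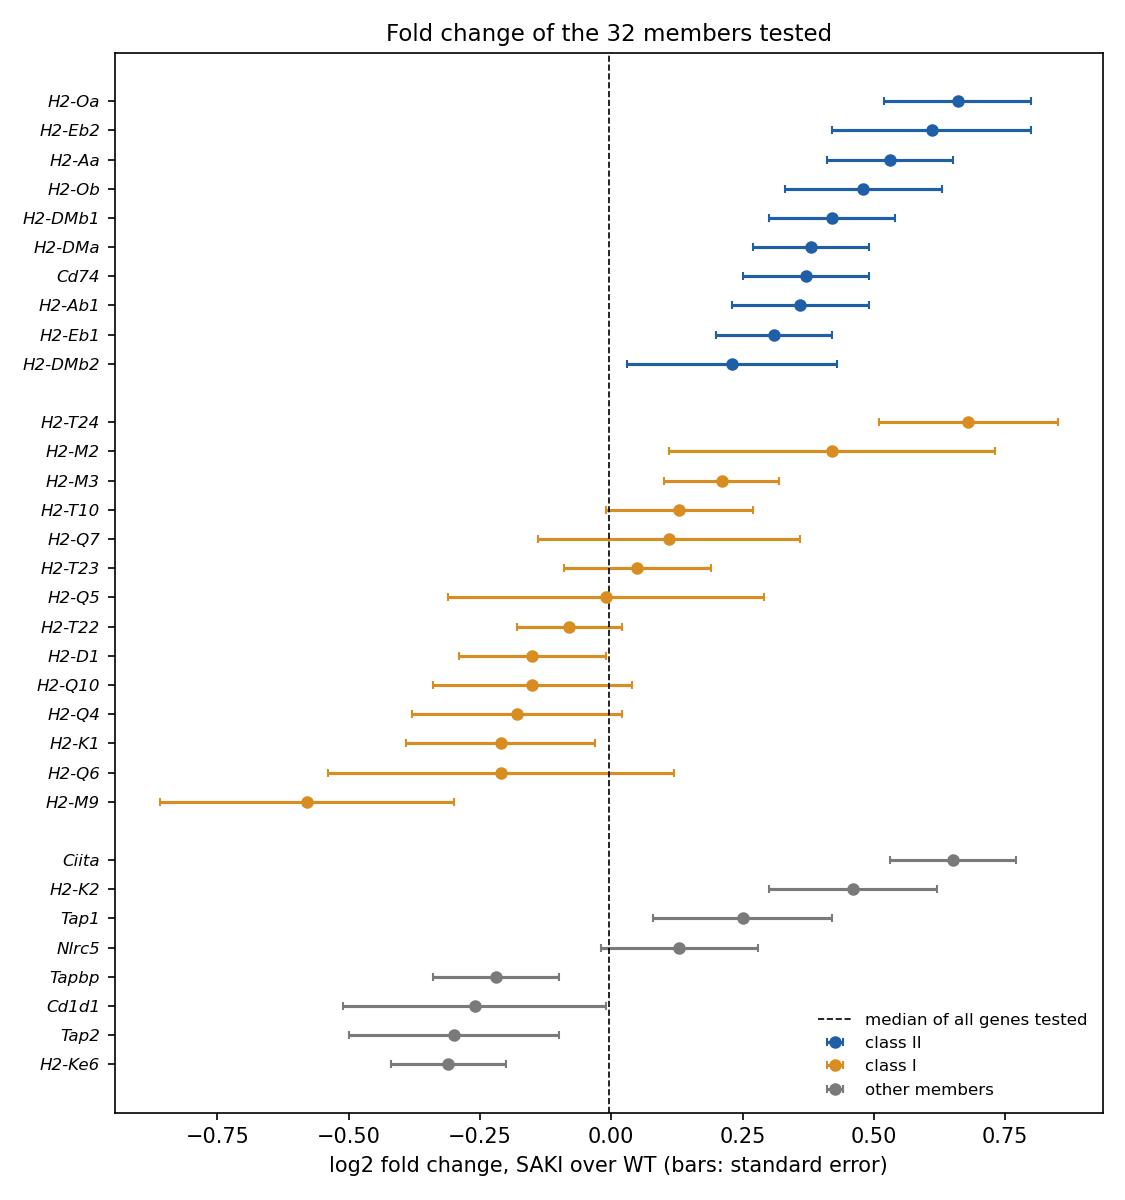
Log2 fold change of SAKI over WT mice with its standard error for the 32 members tested, grouped as class II, class I and other members and sorted within each group. The dashed line marks the median of all genes tested (-0.004). The 10 class II genes lie between 0.23 and 0.66, whereas the class I genes spread on both sides of the line from -0.58 to 0.68.

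Set against each other within a library, which needs no scaling between libraries, class II transcripts stood higher relative to class I transcripts in SAKI mice. The class II genes summed to 3149, 3252 and 3381 CPM in SAKI mice, against 2636, 2411 and 2385 CPM in WT mice, a ratio of 1.32. The class I genes summed to 3884, 3957 and 4517 CPM in SAKI mice, against 4779, 3809 and 5052 CPM in WT mice, and overlapped. Class II counts therefore amounted to 0.811, 0.822 and 0.748 times the class I counts in SAKI mice, against 0.552, 0.633 and 0.472 times in WT mice. Every SAKI library was above every WT library in this ratio, with WT 2 the nearest to them. On the log2 scale the group means were -0.33 ± 0.07 in SAKI mice and -0.87 ± 0.21 in WT mice (SD, n = 3 each), a difference of 0.53, which was 0.64 without WT 2. With the chains alone against H2-D1 and H2-K1 the difference was 0.59. No test was made of this ratio, because the members were chosen with results of these data known.

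Levels can be compared between genes only per length. The lengths behind the authors' FPKM exceeded the whole span of the gene for 7 of the 32 members, so CPM per kilobase of merged GENCODE exons was used beside them. On that scale Cd74 (750 CPM per kilobase) and H2-D1 (716) led in SAKI mice with overlapping libraries, against 580 and 796 in WT mice, where all H2-D1 libraries (726 to 856) were above all Cd74 libraries (549 to 620). The FPKM values gave the same order, with Cd74 at 633 and H2-D1 at 599 in SAKI mice, against 483 and 656 in WT mice. H2-K1 followed at 377 CPM per kilobase in SAKI mice and 437 in WT mice, then H2-Eb1 at 261 and 210. H2-K1 differed between the scales, since its FPKM of 154 in SAKI mice and 175 in WT mice, made with a length 2.47 times that of its merged exons, placed it below H2-Eb1 (431 and 343) and H2-Aa (266 and 181) in both groups. H2-Ab1 (191 CPM per kilobase in SAKI mice, 149 in WT mice) and H2-Aa (178 and 123) overlapped in SAKI mice and in WT mice. By FPKM their order was reversed, with H2-Ab1 at 210 in SAKI mice and 162 in WT mice, below H2-Aa.

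Marker genes of immune cells were mostly higher in SAKI mice, as the class II genes were, but did not follow them library by library in WT mice. The 10 general leukocyte markers, such as Ptprc (CD45), summed to 1891, 2032 and 2246 CPM in SAKI mice, against 1758, 1153 and 1597 CPM in WT mice. All 10 had log2 fold changes above 0, with a median of 0.46, and the summed groups did not overlap. Class II over leukocyte markers, as a log2 ratio, was 0.74, 0.68 and 0.59 in SAKI mice, against 0.58, 1.06 and 0.58 in WT mice, so the groups overlapped and their means differed by -0.07. Ciita over leukocyte markers overlapped too, at -4.60, -4.47 and -4.51 in SAKI mice and -4.83, -4.39 and -4.87 in WT mice. Both overlaps came from WT 2, the highest library in each ratio. Every SAKI library lay above WT 1 and WT 3, by little in the class II ratio (0.59 in SAKI 3 against 0.58). The part of cell numbers in the class II difference was not tested.

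The cell types that carry class II molecules differed in how they followed it. Macrophage markers (14 genes, such as Csf1r and Timd4) summed to 2611, 2806 and 3143 CPM in SAKI mice, against 1385, 2598 and 1145 CPM in WT mice. Of their log2 fold changes 11 were above 0, with a median of 0.69. WT 2 was near the SAKI mice in these markers, yet its class II genes, at 2411 CPM, were at the level of the other WT mice. B cell markers (12 genes, such as Ms4a1) summed to 930, 1073 and 1049 CPM in SAKI mice, against 1050, 599 and 913 CPM in WT mice, and overlapped. Their 12 log2 fold changes were all above 0 with a median of 0.28, below the class II median of 0.40. Dendritic cell markers (10 genes) summed to 234, 250 and 311 CPM in SAKI mice, against 209, 236 and 183 CPM in WT mice, and overlapped, with 7 of 10 log2 fold changes above 0 and a median of 0.33.

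Among the dendritic cell markers, 2 genes were picked out after their values were seen. Clec9a, a receptor of type 1 dendritic cells, had 13.7, 13.9 and 13.8 CPM in SAKI mice, against 3.07, 4.02 and 2.36 CPM in WT mice. The groups were far apart, with a log2 fold change of 2.13 (SE 0.22, edgeR adjusted p = 0.0569). Zbtb46, a transcription factor of dendritic cells that is also made by endothelium, had 33.6, 31.6 and 39.2 CPM in SAKI mice, against 43.6, 43.3 and 42.6 CPM in WT mice, and so pointed the other way. T and NK cell markers, of cells that mostly lack class II molecules in mice, summed to 616, 646 and 700 CPM in SAKI mice, against 460, 300 and 395 CPM in WT mice, with 12 of 12 log2 fold changes above 0 and a median of 0.71.

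Markers of lymph node stroma and vessels (8 genes) summed to 201, 233 and 226 CPM in SAKI mice, against 173, 169 and 178 CPM in WT mice, with Ccl21a and Ccl19 at 0 in every library. Of the 6 tested, 5 had log2 fold changes above 0 and 1, Ltbr, below. Ltbr was lower in every SAKI library, at 47.9 CPM on average against 63.2 CPM in WT mice. The sum averaged 220 CPM in SAKI mice and 174 CPM in WT mice, and Glycam1 alone 78.8 and 26.1 CPM, so the higher sum rested on Glycam1. The scarce Madcam1 (2.26 CPM against 1.26 in WT mice) and Chst4 (3.63 against 2.17) were also higher in every SAKI library. Cxcl13 and Tnfsf11 overlapped. Markers of fat and vessel cells were mostly lower in SAKI mice, since 11 of 11 markers of mature adipocytes had log2 fold changes below 0 (median -0.42), and 7 of 10 markers of endothelium did (median -0.12). Markers of fibroblasts and progenitors ranged in sum over 16946 to 18269 CPM in SAKI libraries, against 13018 to 22133 CPM in WT libraries, and overlapped. Those of epithelium were near 0, with sums of 3.98 to 7.18 CPM in SAKI libraries, against 2.40 to 15.1 CPM in WT libraries. The part of any of these cells in the differences of the MHC genes was not tested.

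**Figure D4:**
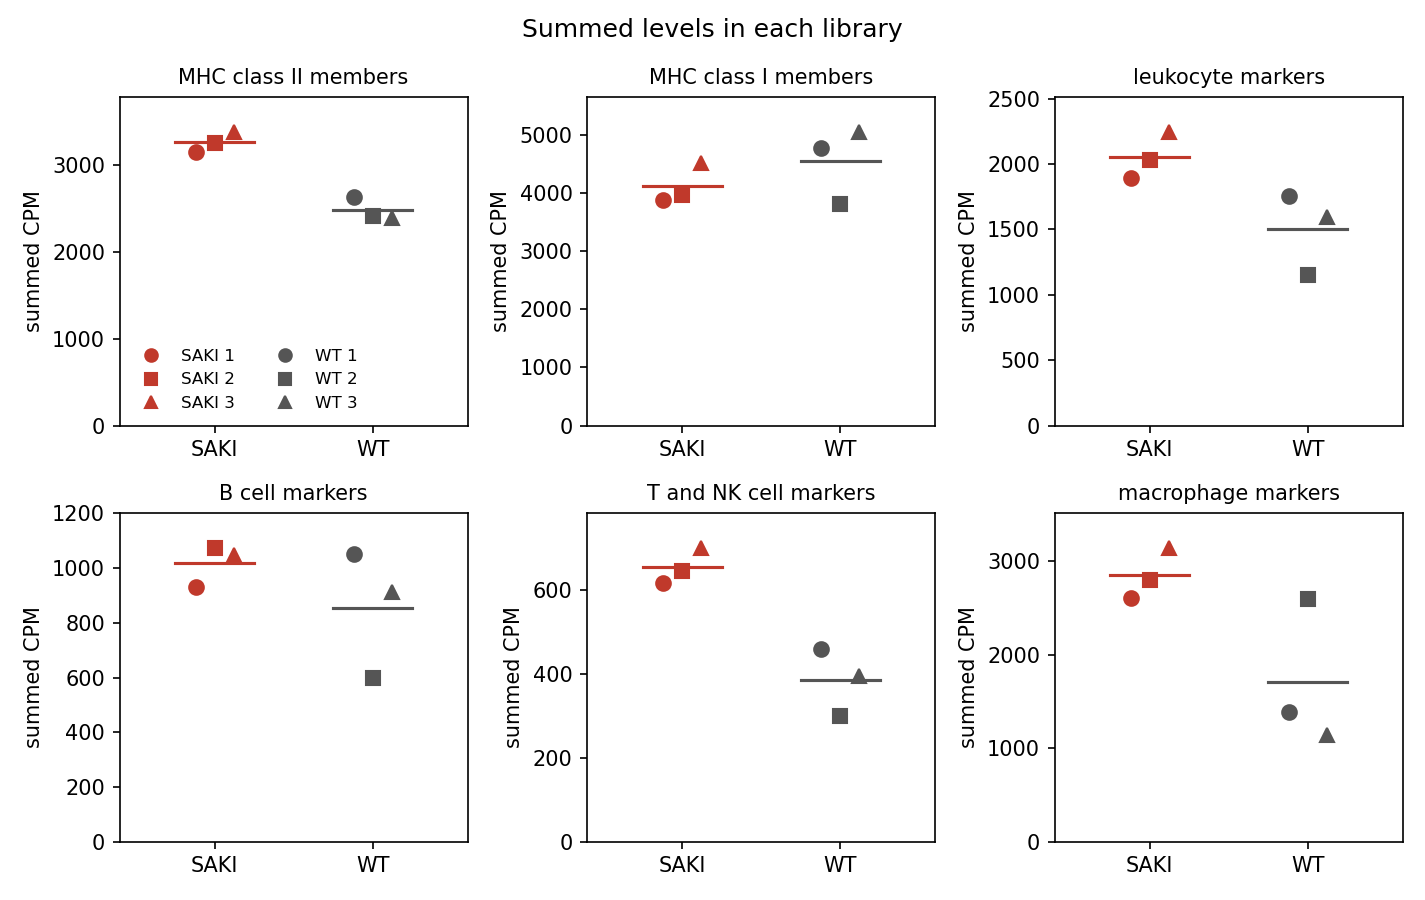
Summed CPM in each IngWAT library (SAKI left of WT, bar at the group mean, axes from 0) of the class II genes, the class I genes and 4 marker lists. Class II genes, leukocyte markers, T and NK cell markers and macrophage markers lie higher in all SAKI libraries, and among the marker lists WT 2 (grey square) nears the SAKI mice only in macrophage markers. It is the lowest library in leukocyte, B cell and T and NK cell markers.

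Other genes of the class II pathway leaned the same way as the class II genes. Among 11 partners and proteases, 8 had log2 fold changes above 0, with a median of 0.24, and 4 had an unadjusted edgeR p under 0.05, all higher in SAKI mice, against 8.36% of all genes. March1, a ubiquitin ligase that removes class II molecules from the cell surface, had 42.5, 54.7 and 49.8 CPM in SAKI mice, against 23.3, 29.6 and 28.5 CPM in WT mice. The groups were well apart, with a log2 fold change of 0.85 (SE 0.14, edgeR adjusted p = 0.148). Cd4, the T cell coreceptor that binds class II molecules, had 76.4, 90.3 and 83.0 CPM in SAKI mice, against 56.1, 42.3 and 44.4 CPM in WT mice (log2 fold change 0.81, SE 0.14, edgeR adjusted p = 0.148). Ctss, the cathepsin that trims the invariant chain, had 201, 207 and 242 CPM in SAKI mice, against 149, 146 and 117 CPM in WT mice (log2 fold change 0.66, SE 0.14, edgeR adjusted p = 0.155). In both genes every SAKI library lay above every WT library.

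The list for the complex on X and Y boxes, which includes the coactivator Crebbp, had a median of 0.14 over 8 genes. Rfx5, a subunit that binds the X box, was the 1 gene of that list with an unadjusted p under 0.05, with 26.4, 31.0 and 29.5 CPM in SAKI mice, against 25.6, 21.5 and 18.4 CPM in WT mice (log2 fold change 0.41, SE 0.15, edgeR adjusted p = 0.241). Of 9 costimulatory genes, 6 were above 0 with a median of 0.25. Cd86, the partner of CD28 on presenting cells, had 33.2, 39.5 and 37.6 CPM in SAKI mice, against 23.9, 25.8 and 23.3 CPM in WT mice (log2 fold change 0.59, SE 0.12, edgeR adjusted p = 0.148). Cd28, the T cell receptor for it, had 34.0, 41.6 and 45.2 CPM in SAKI mice, against 26.6, 14.7 and 18.2 CPM in WT mice (log2 fold change 1.02, SE 0.23, edgeR adjusted p = 0.163). All 3 of these genes kept their groups apart.

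The class I side of the pathway was as mixed as the class I genes. The 14 class I partners and proteasome genes split 7 above and 7 below 0, with a median of -0.00. B2m, the light chain that every class I molecule shares, had 1590, 1704 and 1890 CPM in SAKI mice, against 1496, 1593 and 1506 CPM in WT mice, with overlap, and its log2 fold change was 0.17 (SE 0.13, edgeR adjusted p = 0.499). Cd8b1, a chain of the T cell coreceptor for class I molecules, had 34.7, 33.1 and 37.8 CPM in SAKI mice, against 30.7, 15 and 21.7 CPM in WT mice, and was the 1 gene of the list with an unadjusted p under 0.05. The 8 class I-like genes outside the H2- names split 4 and 4 with a median of -0.01.

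Interferon-gamma, the best known inducer of both classes, had a pathway list with no common direction. The list holds receptors, signaling genes and inhibitors beside response genes. Of its 20 tested genes, 8 were above and 12 below 0, with a median of -0.10. An unadjusted edgeR p under 0.05 was reached by 2 that were higher and 3 that were lower, against 8.36% and 9.99% of all genes. Ifng, the gene of interferon-gamma, was too scarce to be tested. It had 4, 6 and 7 counts in SAKI libraries, against 1, 2 and 2 counts in WT libraries. Irf1, a transcription factor that interferon-gamma induces, had 77.8, 68.5 and 55.5 CPM in SAKI mice, against 44.9, 47.1 and 41.2 CPM in WT mice, and its groups did not overlap (log2 fold change 0.60, SE 0.14, edgeR adjusted p = 0.170). Irgm1, an interferon-induced GTPase, had 66.3, 61.9 and 66.0 CPM in SAKI mice, against 41.5, 49.5 and 57.8 CPM in WT mice. Socs3, an inhibitor of cytokine signaling, pointed the other way with overlap, at 12.0, 16.4 and 19.7 CPM in SAKI mice and 26.3, 19.6 and 51.3 CPM in WT mice. In all 6 pathway lists edgeR called 0 genes after adjustment. These lists were chosen with earlier results of the same libraries known.

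**Figure D5:**
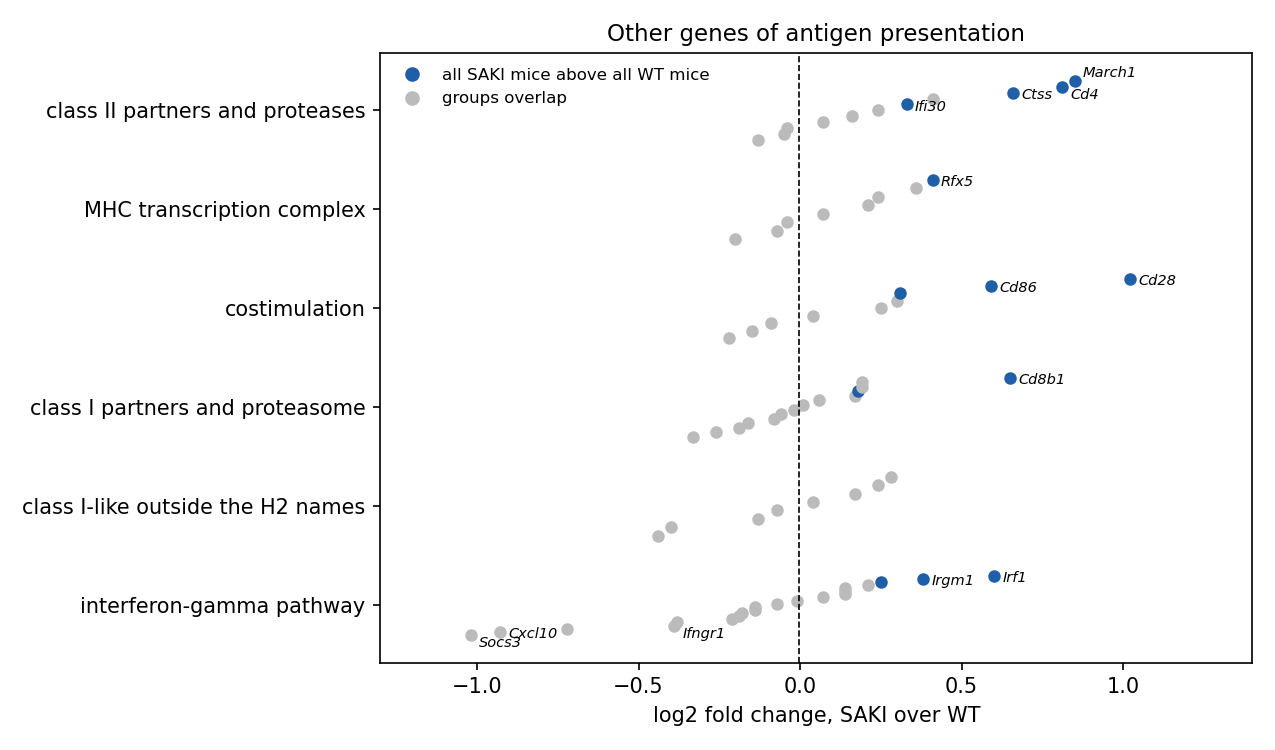
Log2 fold change of SAKI over WT mice for the genes tested in 6 lists of the pathway outside the members, 1 point per gene, with names for genes with an unadjusted edgeR p under 0.05 and the dashed line at the median of all genes tested. Blue points are genes in which all SAKI libraries exceed all WT libraries, grey points genes whose groups overlap. Class II partners and proteases lean right of the line (8 of 11 above 0), while class I partners and proteasome genes split 7 and 7.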

How the data were processed

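Counts and FPKM of IngWAT from 3 SAKI and 3 WT mice were analysed, 1 library per mouse. The authors deposited raw counts per gene for each library and a table of FPKM values, which are the same counts divided by a gene length and by the library's total. StringTie 1.3.0, Bowtie2 2.2.6, HISAT2 2.0.4 and the build GRCm38 stand in the submitters' processing notes, with no role stated. How reads were counted (tool, annotation, strand) is not given in the sources used here. For RNA extraction the labels name an MJzol kit and the paper's methods Trizol. Library totals were 15354161 to 18787036 counts, and shares and limits at 0 counts cover counting error only. Groups came from the labels, which record no batch. Of the symbols, 27 read as dates in the tables and were looked up again by gene ID.

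Counts were fitted in edgeR 4.0.16 (R 4.3.3) with filterByExpr (minimum count 10, minimum total 15), TMM factors, genotype as the only term, the quasi-likelihood test and Benjamini-Hochberg adjustment over 15400 genes at 0.05. Alternatives were RLE and upper-quartile factors, DESeq2 1.42.0, no low-count filter, a mean of at least 5 CPM, the replicate number as a block, limma 3.58.1 on log2(FPKM + 1) and log2(FPKM + 0.1) for genes that reached an FPKM of 1 in 3 or more libraries, or with no filter, and each library left out. The steps were tested on simulated counts. Overlaps and shared 100-base stretches came from GENCODE M21. Positions are on GRCm38.

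Values in every library are given for the classical class I genes, the class II chains, Cd74, H2-DMa, H2-DMb1, the 2 transactivators, Tap1, Tap2, Tapbp, Cd1d1 and any member with an unadjusted p under 0.05, and for up to 3 genes of smallest p in each other list. H2-DMb2, H2-M3, B2m, Clec9a, Zbtb46, Ifng and the named lymph node markers were named after their values were seen. So were the nonclassical class I genes other than H2-T24. Members and lists were chosen with earlier results of these data known.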

Additional observations from a re-analysis of the deposited data

How the results depend on the processing

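The 10 class II genes tested stayed above 0 under each of the 15 alternatives (150 of 150 values), and their median log2 fold change ranged from 0.35 to 0.45. For the 9 with no overlap, leaving out a library could hardly turn the sign. The other alternatives refitted the same 6 libraries, so the 150 values are not separate support. Leaving out WT 2 (chosen for these counts after the data were seen) kept 9 of 10 class II genes with an unadjusted p under 0.05. The same 9 had no overlap without WT 2, which leaving out a library could not undo. The class I median ranged from -0.16 to 0.08, and 196 of its 210 values kept their sign. The log2 difference of class II over class I ranged from 0.42 to 0.64. Over all genes edgeR called 5 (3 higher and 2 lower in SAKI mice). DESeq2 called 724 genes (309 higher, 415 lower) and 5 members (5 higher). No low-count filter gave 8 genes (4 lower), limma on log2(FPKM + 1) and on log2(FPKM + 0.1) each gave 9 (6 higher), and limma with no filter gave 5 higher and 1 lower. With 1 library left out, the calls ranged from 1 to 2598 genes (1 to 1163 higher, 0 to 1435 lower) and from 0 to 7 members (0 to 4 higher, 0 to 3 lower), the highest count in each case without WT 2. The cause was not tested. With the replicate number as a block 1 gene was called (1 higher, 0 lower) and 0 members. Same-numbered mice did not deviate together (correlations of 0.0363, 0.0423 and 0.0893), and no mouse correlated best with its own number, so the numbers were not taken as pairs.

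Signs reversed in 5 members, 4 of them with values between -0.01 and 0.13 and the other Cd1d1 (-0.26). H2-Q5 (-0.01) had 0.04 with upper-quartile factors, 0.02 with a mean of at least 5 CPM, 0.06 with the block, 0.08 and 0.09 on log2(FPKM + 1) and log2(FPKM + 0.1) and 0.08 with no filter on FPKM. With 1 library left out, H2-Q5 ranged from -0.29 to 0.21, H2-Q7 from -0.12 to 0.25, H2-T23 from -0.06 to 0.16, Cd1d1 from -0.46 to 0.02 and Nlrc5 from -0.00 to 0.20. In the simulated counts edgeR found 0 of 67 genes altered 1.5-fold and 18 of 67 altered 2-fold. In that setting it mostly missed single genes that differed by up to 2-fold. Those counts left 15200 genes unaltered, and the altered ones were drawn at random, so the rates are not those of the members. The simulated counts also held no library set apart as WT 2 was, and DESeq2 called 5 members that differed by less.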
